A study of Mus musculus with 36 samples.

Results

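The transcriptome of RAW 264.7 cells, a mouse macrophage-like cell line, was compared after 12 h with bacterial lipopolysaccharide (LPS) at 10 µg/mL and after 12 h with solvent. All 3 libraries of each of these groups were used, 6 of the 36 libraries of the series, and every gene of the count table was eligible. Of 53465 genes, 16988 passed the filter on low counts and were tested. The cells of both groups are labelled wild type, and neither group received melatonin. The remaining 30 libraries hold cells given melatonin at 0.1 to 1000 µM, alone or for 30 min before LPS. They helped to estimate the spread of each gene, and the libraries of the lowest dose, 0.1 µM, were also compared as a second LPS response that shares no library with the first. Whether replicate libraries stem from different cultures is not stated, and p-values therefore cover only the spread among the 3 libraries of each group, possibly a technical one. One cell line was used, so the values describe that line only.

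LPS is the outer-membrane glycolipid of Gram-negative bacteria and is sensed at the macrophage surface by TLR4 with its partners CD14 and MD-2. Signalling through MyD88 and TRIF activates NF-κB, MAP kinases and interferon regulatory factors within minutes, and a broad change of transcription follows over hours. Cytokines, interferon-stimulated genes and cell-cycle genes are the classic readouts of that change. The account here concerns mainly the other genes that moved: regulators, transporters, enzymes, surface proteins and the machinery of protein synthesis, turnover and traffic.

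The 6 libraries held between 5905073 and 7237716 assigned reads each. Gene positions are those of GENCODE M21 on mm10. Levels are given as counts per 1000000 of the TMM-scaled library total (CPM), which compares a gene between libraries but not 1 gene with another. The 10 macrophage markers summed to 12753 to 13452 CPM in the solvent libraries and 13183 to 13363 CPM in the LPS libraries, with Lyz2 as the largest part (6482 ± 100.2 and 8250 ± 159 CPM, not called). Single markers moved within that sum: Cd14, Adgre1 and Ptprc rose (Cd14 from 425 ± 6.11 to 2314 ± 109 CPM), Csf1r fell, and Mertk had 14 counts over the solvent libraries and 0 with LPS. Summed markers of B cells, T and NK cells, neutrophils, mast cells, fibroblasts, epithelium and endothelium stayed at or below 6.78 CPM in every library, and Cd3e, Ly6g, Kit and Krt18 had 0 counts. Dendritic cell markers summed to 60.2 to 84.3 CPM with solvent and 1.39 to 12.9 CPM with LPS. Most of that sum was Siglech, a sialic-acid-binding lectin also found on other myeloid cells (solvent mean 68.6 ± 12.0 CPM, SD, n = 3), while Flt3 and Cd209a had 0 counts. In bulk RNA, fewer cells making a transcript and less transcript in each cell cannot be told apart.

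LPS raised 1427 genes and lowered 1375 (edgeR quasi-likelihood test, Benjamini-Hochberg adjusted p under 0.05, as for all calls below), which is 8.4% and 8.09% of the genes tested. Of the protein-coding genes tested, 10.5% rose and 10.5% fell. All list counts below are to be read beside these shares. Most of these genes did not match the symbol patterns used for the classic groups. By symbol patterns, 101 of the higher genes belonged to the cytokine, interferon or cell-cycle groups and 1326 (92.9%) did not. Among the lower genes, 209 belonged to them, 203 of these to the cell cycle, and 1166 (84.8%) did not. The patterns read symbols only, so these shares are approximate. The repair gene Brca1 matched and its fellow list member Bard1 did not, while Cdc42ep2 matched a cell-cycle pattern. Some list members described below match the patterns, among them Brca1, Brca2, Chaf1b and Il7r. The 3 LPS libraries lay above all 3 solvent libraries for 1403 of the 1427 higher genes, against 15.7% of all genes tested. For 1324 of the 1375 lower genes they lay below all 3, against 15.6% of all genes tested. The median log2 fold change over all tested genes was -0.02, and the middle 50% of genes lay between -0.73 and 0.57.

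Most of the 15 largest rises outside the symbol patterns were reached by genes that were silent or nearly silent with solvent. Among receptors, Hcar2 (chr5:123863570-123865499), the Gi-coupled receptor of niacin and the ketone body β-hydroxybutyrate, had 0 counts in all solvent libraries and 14.1, 10.8 and 18.04 CPM in the LPS libraries. Its level was at least 90.3-fold higher, set against 3 counts over the solvent group (adjusted p = 2.44e-05). Gpr18, an orphan G-protein-coupled receptor of immune cells, went from 0 counts to 10.3, 12.8 and 6.94 CPM, at least 63.2-fold higher (adjusted p = 0.00859). Both receptors were thus detected in each LPS library and in no solvent library. These bounds cover counting error only, and other libraries without LPS were not always at 0 counts. Hcar2 had 0, 4.71 and 0.171 CPM with 1 µM melatonin alone, and Gpr18 had 0, 0 and 2.16 CPM with 1000 µM. Edn1 (chr13:42301476-42307990), which encodes the vasoconstrictor endothelin-1, had 1.53, 0.314 and 0.449 CPM in the solvent libraries and 114, 129 and 126 CPM in the LPS libraries (log2 fold change 7.33 ± 0.67 (SE), adjusted p = 2.2e-11). Hdc, which makes histamine from histidine, had 0.170, 0 and 0.300 CPM with solvent and 39.1, 36.97 and 37.6 CPM with LPS, a ratio of 239 (95% exact counting interval 81.5 to 1162) from 3 solvent counts. For Edn1 and Hdc the lowest LPS library stood far above the highest solvent library. With 1 library left out, the log2 fold change moved for Edn1 to 8.25 (solvent replicate 1).

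Regulators and enzymes made up most of the others. Prdm1, which encodes the transcriptional repressor BLIMP1, had 0 counts with solvent and 8.04, 13.7 and 5.55 CPM with LPS, at least 57.4-fold higher (adjusted p = 0.00512). Dnmt3l, a partner of the de novo DNA methyltransferases without catalytic activity, had 0, 0 and 0.150 CPM with solvent and 17.7, 16.3 and 18.2 CPM with LPS. Zfp811, a zinc finger gene, had 0, 0.157 and 0.150 CPM with solvent and 37.3, 32.6 and 42.3 CPM with LPS. Their LPS to solvent ratios rest on 1 and 2 solvent counts and were 329 (95% exact counting interval 58.7 to 13043) and 353 (95% exact counting interval 97.4 to 2920). Mmp9, a gelatinase that cuts matrix, was at least 52.4-fold higher, with 0 counts against 9.86, 6.40 and 8.64 CPM. Acsbg1, an acyl-CoA synthetase of long-chain fatty acids, had 0, 0 and 0.150 CPM with solvent and 7.74, 11.6 and 26.8 CPM with LPS, so its LPS libraries spanned a wide range. Arg2, the mitochondrial arginase, was at least 39.4-fold higher, and Bik, a pro-apoptotic BH3-only protein, at least 58.8-fold higher. In both of these genes the second LPS library was low: Arg2 had 9.10, 1.60 and 8.02 CPM and Bik 12.9, 0.873 and 14.2 CPM in the 3 LPS libraries, against 0 counts with solvent. Without LPS, 1 library with 1 µM melatonin had 4.88 CPM of Prdm1, and 1 library with 100 µM had 5.15 CPM of Arg2. Acsbg1 had 2.64, 4.35 and 1.68 CPM with 0.1 µM melatonin alone, so it was not silent in every group without LPS. The remaining members of the 15 were Lcn2, Nos2, Acod1 and the miRNA host Mir155hg.

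**Figure D1:**
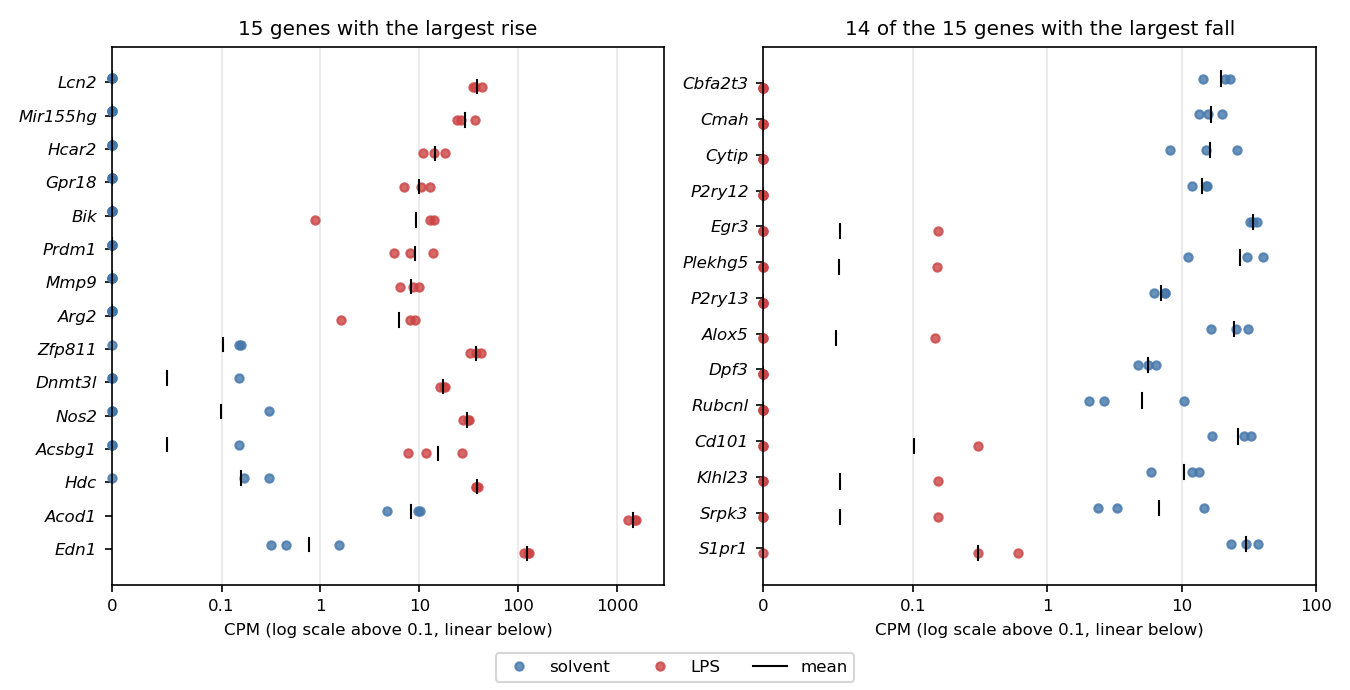
CPM of the 15 genes with the largest rise (left) and 14 of the 15 with the largest fall (right) outside the classic groups. Each point is 1 library (blue, solvent; red, LPS), black ticks are group means (n = 3), and the horizontal axis is logarithmic above 0.1 CPM and linear below. The groups do not overlap for any gene shown, which the rule for choosing them required; in the left panel Bik and Arg2 have 1 low LPS library each.

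The 15 largest falls left these genes at or close to 0 counts. The ADP receptors P2ry12 and P2ry13, which lie beside each other on chromosome 3, had 12.1, 15.1 and 15.4 CPM and 7.48, 6.28 and 7.49 CPM with solvent and 0 counts with LPS. They lie at chr3:59216272-59262871 and chr3:59207892-59210882, and were at least 94.4-fold and at least 47.1-fold lower (adjusted p = 0.000689 and 0.00823). S1pr1, a receptor of sphingosine-1-phosphate that guides cell movement, had 30.4, 36.9 and 23.2 CPM with solvent and 0.607, 0 and 0.308 CPM with LPS (log2 fold change -6.56 ± 0.91 (SE), adjusted p = 3.5e-07). Alox5, the 5-lipoxygenase that starts leukotriene synthesis, had 31.3, 25.3 and 16.6 CPM with solvent and 1 count in all LPS libraries together, a ratio of LPS to solvent of 0.00208 (95% exact counting interval 5.26e-05 to 0.0117). Each of these 4 genes was measured at several CPM or more in every solvent library. Other libraries without LPS were not always that high: P2ry13 had 8.36, 0 and 2.05 CPM with 100 µM melatonin alone. With 1 library left out, the log2 fold change moved for S1pr1 to -7.47 (LPS replicate 1).

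Cmah, which hydroxylates the sialic acid Neu5Ac to Neu5Gc, had 20.05, 15.9 and 13.5 CPM with solvent and 0 counts with LPS, at least 109-fold lower. Cytip, which binds cytohesins and modulates adhesion, had 8.16, 15.2 and 25.8 CPM with solvent and was at least 109-fold lower, although its solvent libraries ranged widely. Egr3, an early growth response transcription factor, had 36.5, 33.9 and 32.1 CPM with solvent and 0, 0 and 0.154 CPM with LPS, a ratio of 0.00147 (95% exact counting interval 3.72e-05 to 0.00823). Plekhg5, an exchange factor for small GTPases, had 40.1, 30.8 and 11.2 CPM with solvent and 0.152, 0 and 0 CPM with LPS, and Cd101, an immunoglobulin-family inhibitory receptor, 29.1, 32.8 and 16.8 CPM with solvent and 0, 0 and 0.308 CPM with LPS. Dpf3, a subunit of BAF chromatin remodelling complexes, fell from 4.76, 5.65 and 6.44 CPM to 0 counts, at least 37.4-fold lower. With melatonin alone, also without LPS, group means of Dpf3 ran from 0.329 CPM (highest dose) to 2.02 CPM (lowest dose). LPS after 10 µM melatonin left a mean of 1.56 CPM. The bound for Dpf3 thus rests on a solvent mean above those of all other groups without LPS. Rubcnl, which takes part in autophagosome maturation, had 2.04, 2.67 and 10.5 CPM with solvent, mostly from 1 library, and was at least 33.7-fold lower. Klhl23, the kinase Srpk3 and the corepressor Cbfa2t3 also belonged to the group, each with at most 1 count over the LPS libraries. Calls that ended without 1 library were those of Dpf3 (LPS replicate 1, 2 or 3 left out, adjusted p = 0.077 to 0.0786) and Srpk3 (LPS replicate 2 or solvent replicate 2 left out, adjusted p = 0.0503 to 0.0556).

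Among host transcripts of microRNAs, Mir155hg and Mir22hg rose and Mir17hg fell. These libraries measure the host RNA and not the mature microRNA. Mir155hg had 0 counts with solvent and 26.4, 24.02 and 36.7 CPM with LPS, at least 183-fold higher. With 0.1 µM melatonin alone, also without LPS, Mir155hg had 2.02, 0 and 1.12 CPM. Mir22hg had 18.2, 11.9 and 12.6 CPM with solvent and 49, 46.6 and 46.3 CPM with LPS (log2 fold change 1.73 ± 0.30 (SE), adjusted p = 1.85e-05), with no overlap. Mir17hg, the host of the miR-17-92 cluster on chromosome 14, had 75.6, 63.1 and 66.1 CPM with solvent and 20.6, 14.7 and 33.8 CPM with LPS (log2 fold change -1.57 ± 0.35 (SE), adjusted p = 0.000796), again with no overlap. Mir142hg, at 9.68, 7.22 and 8.54 CPM with solvent and 6.52, 1.02 and 5.24 CPM with LPS, was not called (adjusted p = 0.431). Of the 15 mature strands listed for these 3 hosts, 1 arm of each precursor, usually the more abundant one, is shown to identify the products, as listed by RefSeq for GRCm38.p6, 5′ to 3′ with the seed (bases 2 to 8) in capitals. The last 6 come from Mir17hg, and within them miR-17-5p and miR-20a-5p share 1 seed, as do miR-19a-3p and miR-19b-3p.
miR-155-5p: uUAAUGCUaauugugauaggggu
miR-22-3p: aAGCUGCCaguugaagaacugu
miR-17-5p: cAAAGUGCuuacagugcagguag
miR-20a-5p: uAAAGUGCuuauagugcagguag
miR-18a-5p: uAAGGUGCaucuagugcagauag
miR-19a-3p: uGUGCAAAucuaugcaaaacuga
miR-19b-3p: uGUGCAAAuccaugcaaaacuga
miR-92a-3p: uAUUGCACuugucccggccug

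Over the list of microRNA hosts and long noncoding RNAs, 3 rose and 4 fell of 30 tested members (median log2 fold change -0.22). The nuclear RNAs Malat1 and Neat1, the second of which scaffolds paraspeckles, fell from 4009 ± 199 to 2411 ± 249.9 CPM and from 218 ± 31.8 to 113 ± 10.5 CPM (here and below, group means ± SD, n = 3). Their log2 fold changes were -0.73 ± 0.13 and -0.94 ± 0.24 (SE). Kcnq1ot1, at 238 ± 13.4 and 262 ± 9.32 CPM with solvent and LPS, was not called (adjusted p = 0.549). Of the antisense RNAs, 4 rose and 4 fell among 480 tested. Whether reads were counted by strand is not given in the sources used here, so an antisense transcript and its partner cannot be told apart.

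Transcription factors moved in both directions, and in larger shares (23% and 20.7%) than the 8.4% and 8.09% of all genes or the 10.5% in each direction of the 11780 protein-coding genes tested: 20 rose and 18 fell of 87 tested members (median log2 fold change 0.03). Several of those that rose belong to the basic leucine zipper class. Jdp2, a repressor that dimerises with JUN, had 48.3, 33.4 and 50.3 CPM with solvent and 222, 201 and 221 CPM with LPS (log2 fold change 2.29 ± 0.22 (SE), adjusted p = 3.67e-11). Atf4, the central activator of amino-acid and stress-response genes, had 298, 303 and 261 CPM with solvent and 648, 643 and 590.3 CPM with LPS (log2 fold change 1.13 ± 0.15 (SE), adjusted p = 1.82e-07). Cebpb and Cebpd, which drive acute-phase and myeloid genes, rose from 42.6 ± 3.43 to 119.5 ± 17.4 CPM and from 12.2 ± 0.595 to 41.9 ± 13.6 CPM. The small MAF gene Mafg rose with a log2 fold change of 1.01 ± 0.18 (SE). Ets2, a target and effector of RAS-MAPK signalling, had 19.2, 24.5 and 28.8 CPM with solvent and 188, 157 and 155 CPM with LPS (log2 fold change 2.78 ± 0.21 (SE), adjusted p = 2.2e-14), and its groups stood far apart.

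The factors that fell include Krüppel-like factors and regulators of haematopoiesis. Mef2c, a MADS-box factor, had 657, 633 and 679.6 CPM in the solvent libraries and 169, 206 and 180.3 CPM in the LPS libraries (log2 fold change -1.83 ± 0.11 (SE), adjusted p = 4.37e-17), with no overlap. Klf4 fell from 336 ± 19.99 to 72.97 ± 9.10 CPM, Klf2 from 42.4 ± 5.78 to 6.10 ± 2.30 CPM and Klf10 from 28.1 ± 0.95 to 3.44 ± 2.02 CPM. Tfeb, which controls lysosomal genes, fell from 18.7 ± 4.91 to 3.36 ± 3.42 CPM. Fli1, Runx1 and Lmo2, haematopoietic factors, fell with log2 fold changes of -1.19 ± 0.17, -0.92 ± 0.20 and -1.11 ± 0.22. Spi1, which encodes PU.1, a master factor of the lineage, had 156, 146 and 155 CPM with solvent and 195, 216 and 185 CPM with LPS and was not called (adjusted p = 0.113). The call was lost without 1 library for Tfeb (LPS replicate 1 left out, adjusted p = 0.0544). Leaving out 1 library changed the log2 fold change of Tfeb to -3.51 (LPS replicate 2).

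Cytosolic enzymes that load tRNAs with amino acids rose, and the mitochondrial ones were not called. In the whole list 13 rose and 0 fell of 36 tested members (median log2 fold change 0.29). Of 20 cytosolic aminoacyl-tRNA synthetases tested, 13 rose and 0 fell (median log2 fold change 0.80), whereas of 17 mitochondrial ones 0 rose and 0 fell (median -0.18). At an unadjusted p under 0.05, 0 cytosolic enzymes were lower and 1 mitochondrial enzyme was higher and 0 lower, and DESeq2 called 0 of these. The cytosolic and mitochondrial sets were taken by symbol and do not make up exactly the whole list. Whether the sets differ was not tested, and a few of the cytosolic enzymes, such as Gars, also serve mitochondria. Nars, the asparagine enzyme, had 146, 180.3 and 159 CPM in the solvent libraries and 424, 507 and 502 CPM in the LPS libraries (log2 fold change 1.56 ± 0.14 (SE), adjusted p = 9.52e-12). Rars, the arginine enzyme, had 356, 306 and 328 CPM in the solvent libraries and 960.2, 845 and 1071 CPM in the LPS libraries (log2 fold change 1.54 ± 0.14 (SE), adjusted p = 2.16e-11). Aars, the alanine enzyme, had 87.3, 97.7 and 86 CPM in the solvent libraries and 225, 226 and 217 CPM in the LPS libraries (log2 fold change 1.30 ± 0.16 (SE), adjusted p = 2.06e-08). In all 3 the LPS libraries stood well clear of the solvent libraries. The other risers had log2 fold changes between 0.52 (Dars) and 1.17 (Sars). Yars, the tyrosine enzyme, had 115, 92.8 and 122 CPM with solvent and 161, 138 and 134 CPM with LPS and was not called (adjusted p = 0.209), and the mitochondrial Lars2, at 9074 ± 2889 and 6670 ± 1440 CPM with solvent and LPS, was not either (adjusted p = 0.363). Lars2 held far more counts than any other synthetase given here. Whether all of its reads stem from its mRNA was not tested, so its values are less certain.

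Amino-acid carriers at the membrane changed too: 8 rose and 3 fell of 18 tested members (median log2 fold change 0.41). Slc7a1, the main carrier of cationic amino acids such as arginine, had 115, 147 and 109 CPM in the solvent libraries and 280.3, 283 and 273 CPM in the LPS libraries (log2 fold change 1.17 ± 0.15 (SE), adjusted p = 5.21e-08). Slc7a5 and Slc3a2, the 2 chains of the LAT1 exchanger of large neutral amino acids, rose from 95.5 ± 5.88 to 187 ± 20.95 CPM and from 93.5 ± 14.6 to 158 ± 22.2 CPM. Slc15a3, a histidine and peptide carrier of the endolysosome, rose from 7.99 ± 2.57 to 99.7 ± 7.63 CPM (log2 fold change 3.64 ± 0.32 (SE), adjusted p = 3.76e-12), while its relative Slc15a4 fell from 278 ± 15.8 to 138 ± 17.01 CPM (log2 fold change -1.01 ± 0.21 (SE), adjusted p = 0.000316). Slc43a2 (LAT4) and the taurine carrier Slc6a6 also fell, with log2 fold changes of -2.01 ± 0.39 and -0.71 ± 0.14. The glutamine carriers Slc1a5 and Slc38a2 had 376 ± 42.4 and 385 ± 32.2 CPM and 379 ± 49.9 and 413 ± 29.7 CPM with solvent and LPS and were not called (adjusted p = 0.92 and 0.574). Without 1 library the log2 fold change moved for Slc43a2 to -2.88 (LPS replicate 3).

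The RefSeq promoter table (250 bases before to 50 after a start, GRCm38.p6) held 8 of the 13 synthetases that rose, and 4 of the 8 (Aars, Gars, Iars and Tars) contained TGATGNAA on either strand, the letters of the CARE element bound by ATF4 with C/EBP proteins. Of 17 synthetases with a promoter that were not called, 1 (Yars) contained it. Among the amino-acid carriers it was found for 2 of 5 that rose (Slc7a11 and Slc7a7), 0 of 2 that fell and 1 of 6 not called. The share over all 32851 promoters was 3.97%, and over those of tested genes that were not called 2.19%. These shares are per promoter (9944 promoters of 7878 genes not called), whereas the counts above are genes with the letters in any promoter. The 2 are therefore not the same measure. A match to these letters describes the sequence and is not a measured site. The stretches shown hold the letters in capitals, upstream of the start and on the coding strand, and no other motif searched overlapped them. They are printed because these genes rose together.
Aars, chr8:111033704-111033763, plus strand: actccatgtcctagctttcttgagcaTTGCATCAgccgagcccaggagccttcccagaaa
Gars, chr6:55037945-55038000, plus strand: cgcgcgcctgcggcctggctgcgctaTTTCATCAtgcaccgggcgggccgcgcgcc
Tars, chr15:11399659-11399699, minus strand: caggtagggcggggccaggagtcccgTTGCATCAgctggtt
Slc7a11, chr3:50443646-50443705, minus strand: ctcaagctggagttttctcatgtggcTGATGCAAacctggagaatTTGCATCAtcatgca
Slc7a7, chr14:54418052-54418111, minus strand: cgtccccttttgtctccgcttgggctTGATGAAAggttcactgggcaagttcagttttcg

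Over the genes outside the classic groups that changed at least 2-fold, CARE letters were present in 4.9% of 653 promoters of higher genes and 2.1% of 761 promoters of lower genes. Other motifs of the 15 searched on both strands were also more frequent in the higher set than in the lower, among them ISRE, AP-1 and, by smaller margins, kB, CRE and GAS. The ISRE letters (GAAA, any 2 bases, GAAA) were present in 4.75% of the higher and 2.5% of the lower set, against 2.98% of tested genes not called and 3.44% of all promoters. AP-1 letters (TGANTCA) were present in 7.35%, 4.2%, 5.1% and 7.81% of these 4 sets, and the NF-κB (kB) motif in 11.8%, 9.59%, 9.84% and 8.46%. CRE letters (TGACGTCA) were present in 2.76% of the higher and 2.1% of the lower set and GAS letters (TTCNNNGAA) in 8.27% and 6.57%, but genes not called had 3.17% and 6.79%. ARE (TGACNNNGC) stood at 15% and 13.8%, the E-box (CACGTG) at 9.04% and 8.8%, TATAAA at 8.12% and 7.62% and C/EBP letters (TTGCGCAA) at 0.306% and 0.263%. In the other direction, CCAAT was present in 33.2% of the higher and 43.6% of the lower set (37.9% of genes not called, 37.4% of all), and either E2F form (TTTGGCGC or TTTCCCGC) in 0.919% and 5.26% (2.58% and 1.56%). These shares were not tested, and 9869 of 16981 tested symbols had a promoter in the table. Among the 15 highest genes, 10 had promoters, and matches with no overlapping motif upstream of the start were found in Edn1 and Gpr18 (ISRE), Acsbg1 (kB) and Prdm1 (AP-1). Among the 15 lowest, 12 had promoters, with such matches in P2ry12 (kB) and Cytip (ISRE), so these letters stand before genes that rose and genes that fell. They are shown with the motif in capitals, on the coding strand.
Edn1, chr13:42301373-42301432, plus strand: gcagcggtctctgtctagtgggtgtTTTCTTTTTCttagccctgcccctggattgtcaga
Gpr18, chr14:121915895-121915954, minus strand: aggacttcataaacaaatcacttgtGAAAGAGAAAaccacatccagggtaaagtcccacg
Acsbg1, chr9:54662010-54662069, minus strand: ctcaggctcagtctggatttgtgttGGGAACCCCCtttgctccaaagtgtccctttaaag
Prdm1, chr10:44458764-44458822, minus strand: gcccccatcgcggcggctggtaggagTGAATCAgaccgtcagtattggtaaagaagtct
P2ry12, chr3:59263002-59263061, minus strand: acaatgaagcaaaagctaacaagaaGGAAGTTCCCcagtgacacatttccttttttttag
Cytip, chr2:58160265-58160324, minus strand: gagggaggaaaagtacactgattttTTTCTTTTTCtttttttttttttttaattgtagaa

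**Figure D2:**
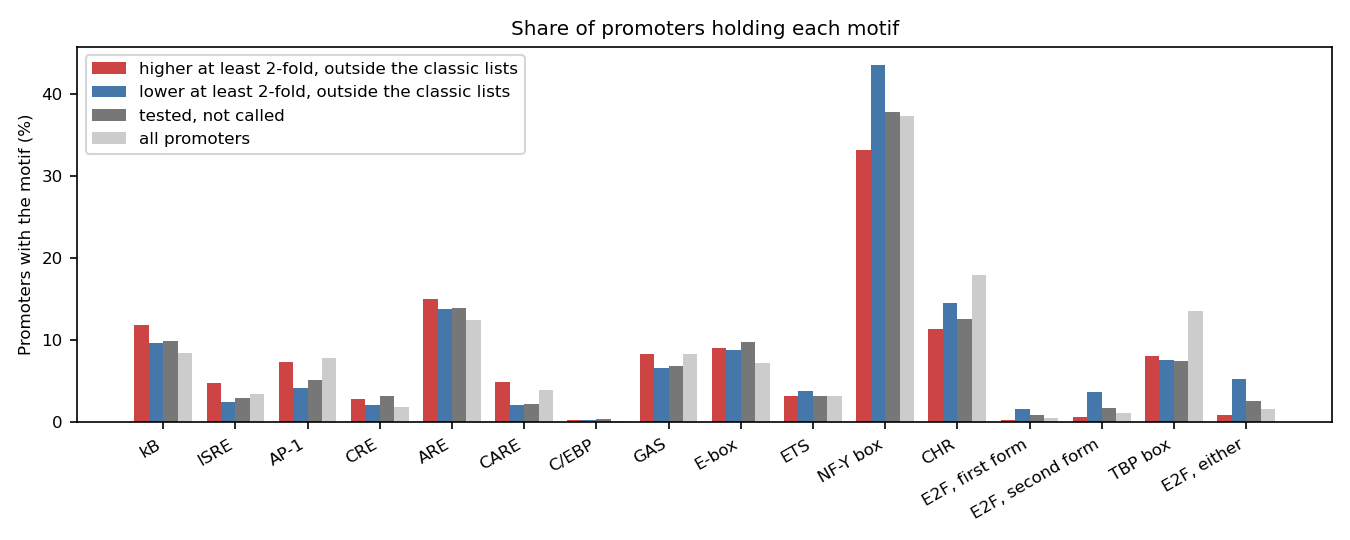
Percent of promoters that hold each motif on either strand (vertical axis) for genes at least 2-fold higher (red) or lower (blue) outside the classic groups, tested genes that were not called (dark grey) and all promoters of the table (light grey). The NF-Y box is CCAAT and stands at 43.6% of the lower set and 33.2% of the higher set; CARE, ISRE, AP-1, CRE, GAS, kB, ARE, E-box, TBP box and C/EBP have the taller bar in the higher set, some by little.

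Genes of the 26S proteasome, the protease that degrades ubiquitin-tagged proteins, rose in large part. Of 20 subunits of the regulatory particle, 14 rose and 0 fell (median log2 fold change 0.88), and of 18 subunits of the core particle, 8 rose and 0 fell (median 0.72), beside 8.4% and 8.09% of all genes. Psmd11, a scaffold subunit of the regulatory lid, had 364, 297 and 318 CPM in the solvent libraries and 798, 689 and 876 CPM in the LPS libraries (log2 fold change 1.27 ± 0.14 (SE), adjusted p = 1.5e-09). Psmd1, which docks ubiquitin receptors, had 34.7, 41.6 and 60.1 CPM in the solvent libraries and 148, 103 and 136 CPM in the LPS libraries (log2 fold change 1.5 ± 0.18 (SE), adjusted p = 1.69e-08). The core subunit Psma6 rose from 1055 ± 21.5 to 2494 ± 148 CPM and the proteolytic subunit Psmb5 from 139 ± 10.1 to 249 ± 25.2 CPM. The interferon-inducible immunoproteasome subunits Psmb8, Psmb9 and Psmb10 were not called. Psmb8 had 157, 142 and 167 CPM with solvent and 210.1, 162 and 233 CPM with LPS (adjusted p = 0.165), Psmb9 had 12.3 ± 1.80 and 10.6 ± 1.79 CPM (adjusted p = 0.857) and Psmb10 21.98 ± 6.86 and 30.4 ± 4.57 CPM (adjusted p = 0.403). Also not called were the 4 activators and the inhibitor (Psme, Psmf) and the 4 assembly chaperones (Psmg). At an unadjusted p under 0.05, 1 core and 0 regulatory subunits were lower, and DESeq2 called 0 lower in either group. The family and these subgroups were chosen after their values were seen. Processed pseudogenes took 20.01% to 20.7% of the counts in the 6 libraries, and how reads that match a gene and its copies were counted is not given in the sources used here, so values of genes with many copies, as in this family, are less certain.

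The enzymes that attach and remove ubiquitin also rose more often than they fell: 22 rose and 7 fell of 58 tested members (median log2 fold change 0.13). Rnf19b, a RING-between-RING ligase, had 67.5, 101 and 96.3 CPM with solvent and 346, 373 and 330.0 CPM with LPS (log2 fold change 1.99 ± 0.16 (SE), adjusted p = 3.24e-13). Rnf213, a giant AAA and RING protein that ubiquitinates LPS in the cytosol, had 138, 147 and 175 CPM with solvent and 461, 559.7 and 549 CPM with LPS (log2 fold change 1.77 ± 0.16 (SE), adjusted p = 1.39e-11). Mdm2, the ligase that degrades p53, rose from 251 ± 9.61 to 569.5 ± 48.04 CPM, and Birc3 and Peli1, ligases of the NF-κB pathway, from 24.3 ± 2.80 to 66.6 ± 16.9 CPM and 52.7 ± 5.66 to 127 ± 2.97 CPM. Skp2, the F-box protein that marks cell-cycle inhibitors for decay, fell from 33.8 ± 2.27 to 11.4 ± 2.15 CPM. In the autophagy list, 6 rose and 2 fell of 37 tested members (16.2% and 5.41%, beside 8.4% and 8.09% of all genes, median log2 fold change 0.40). Sqstm1 (p62), the receptor that carries ubiquitinated cargo to autophagosomes, had 291, 268 and 286 CPM in the solvent libraries and 1779, 1953 and 1707 CPM in the LPS libraries (log2 fold change 2.69 ± 0.13 (SE), adjusted p = 2.26e-20). Its lowest LPS library stood far above every solvent library. Wipi2, which recruits the conjugation machinery, rose from 57.6 ± 11.9 to 162 ± 29.1 CPM, while Map1lc3b, at 129.6 ± 17.7 and 107 ± 3.54 CPM, was not called (adjusted p = 0.361).

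The routes of secretion and endocytosis also held more risers than fallers: 17 rose and 5 fell of 50 tested members (median log2 fold change 0.46). Sec24d, a cargo adaptor of COPII coats leaving the endoplasmic reticulum, had 9.68, 4.71 and 8.24 CPM with solvent and 62.95, 56.5 and 47.96 CPM with LPS (log2 fold change 2.89 ± 0.30 (SE), adjusted p = 2.88e-10). Stx11, a SNARE of late endosomes in immune cells, rose from 6.48 ± 4.18 to 31.7 ± 9.44 CPM (adjusted p = 0.00467), and Rabgef1, the exchange factor of RAB5, from 31.8 ± 14.7 to 121 ± 6.13 CPM. Rab8b and Stx6, of the trans-Golgi and recycling routes, rose with log2 fold changes of 1.18 ± 0.13 and 1.09 ± 0.21. Sort1 (sortilin), which takes proteins from the Golgi to lysosomes, fell from 44.2 ± 7.81 to 10.2 ± 3.66 CPM. Of 17 subunits of the vacuolar proton pump that acidifies endosomes and lysosomes, 6 rose and 0 fell (median log2 fold change 0.42). The largest of these was Atp6v0a1, from 28.97 ± 6.39 to 85.9 ± 12.2 CPM, and Atp6v1h rose from 52.3 ± 12.1 to 123 ± 11.3 CPM. The SNARE gene Vamp8, at 170.5 ± 19.5 and 178 ± 20.8 CPM, was not called (adjusted p = 0.861). Without 1 library the log2 fold change moved for Stx11 to 2.96 (solvent replicate 2).

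**Figure D3:**
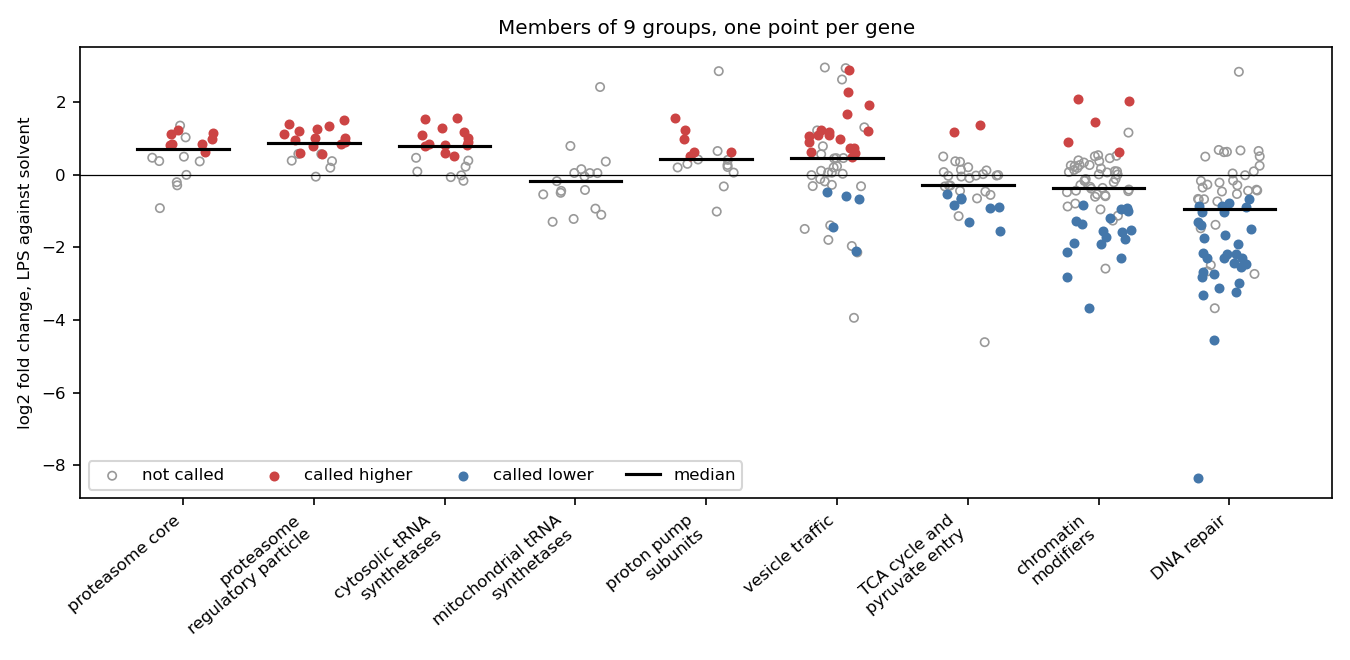
Log2 fold change of LPS against solvent (vertical axis) for every tested protein-coding member of 9 groups, 1 point per gene. Filled red and blue points passed the test as higher and lower, open grey points did not, and black bars are medians. The proteasome and cytosolic synthetase groups hold red and open points only, and the DNA repair group blue and open points only.

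In central carbon metabolism, 1 glucose carrier and 2 dehydrogenases of the pentose phosphate pathway rose, and 8 genes of the citrate cycle list fell. Slc2a1 (GLUT1) had 202, 158 and 144 CPM with solvent and 523, 530.1 and 614 CPM with LPS (log2 fold change 1.72 ± 0.18 (SE), adjusted p = 2.88e-10), and the lactate exporter Slc16a3 rose from 296 ± 18.4 to 427 ± 44.4 CPM. In the list of sugar, lactate and nucleoside carriers, 5 rose and 4 fell of 18 tested members (median log2 fold change -0.16). G6pdx and Pgd, the 2 NADPH-making dehydrogenases of the pentose phosphate pathway, both rose. G6pdx had 109, 151 and 124 CPM with solvent and 302, 258 and 269.9 CPM with LPS (log2 fold change 1.11 ± 0.14 (SE), adjusted p = 3.37e-08), and Pgd rose from 195 ± 19.5 to 308 ± 11.9 CPM. Prps2, which turns ribose phosphate into the nucleotide precursor PRPP, fell from 131 ± 15.6 to 36.6 ± 6.93 CPM. In the pentose phosphate list, 2 rose and 3 fell of 11 tested members (median log2 fold change -0.19). Over the citrate cycle and pyruvate entry list, 2 rose and 8 fell of 33 tested members (6.06% and 24.2%, beside 8.4% and 8.09% of all genes, median log2 fold change -0.30). Of the 4 subunits of succinate dehydrogenase, 3 fell. Sdhd had 381, 359 and 382 CPM in the solvent libraries and 211, 197 and 187 CPM in the LPS libraries (log2 fold change -0.92 ± 0.13 (SE), adjusted p = 3.4e-07), with no overlap, and Sdhb fell from 469 ± 22.3 to 299 ± 31.1 CPM. Fumarate hydratase (Fh1) and cytosolic malate dehydrogenase (Mdh1) fell from 259 ± 32.5 to 162 ± 20.9 CPM and 157 ± 16.1 to 84.04 ± 8.31 CPM. Citrate synthase (Cs), at 382 ± 14.2 and 311 ± 5.26 CPM, was not called (adjusted p = 0.0742). With 1 library left out the call was lost for Sdhb (LPS replicate 2 left out, adjusted p = 0.0684) and Slc16a3 (LPS replicate 2 left out, adjusted p = 0.0595).

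Pathways that use one-carbon units and nucleosides were split. In the list of serine and one-carbon metabolism, 4 rose and 5 fell of 21 tested members (median log2 fold change 0.04). Psph, the last step of serine synthesis, and Mthfd2, a mitochondrial folate dehydrogenase, rose from 28.96 ± 7.37 to 85.2 ± 21.2 CPM and 256 ± 38.6 to 451 ± 20.1 CPM. Tyms, which makes thymidylate and is induced in S phase, fell from 31.6 ± 4.72 to 3.37 ± 2.60 CPM. Thymidine kinase Tk1 fell likewise, with 42.8, 41.6 and 35.2 CPM with solvent and 6.37, 3.78 and 2.16 CPM with LPS (log2 fold change -3.27 ± 0.50 (SE), adjusted p = 2.29e-06). In the opposite direction, Ampd3, which deaminates AMP, had 1.53, 4.87 and 6.59 CPM with solvent and 32.3, 45.6 and 58.8 CPM with LPS (log2 fold change 3.38 ± 0.41 (SE), adjusted p = 1.68e-08). In the nucleoside salvage list, 3 rose and 1 fell of 24 tested members (median log2 fold change 0.29). The nucleoside carriers Slc29a1 and Slc29a3 fell from 34.97 ± 7.17 to 5.54 ± 2.98 CPM and 146 ± 4.22 to 60.2 ± 1.48 CPM. Ornithine decarboxylase (Odc1), which starts polyamine synthesis, had 59.6, 45.1 and 43 CPM with solvent and 249.5, 227 and 259 CPM with LPS (log2 fold change 2.32 ± 0.19 (SE), adjusted p = 6.49e-13). Kmo, the kynurenine hydroxylase on the route to NAD, had 28.03, 29.7 and 21.3 CPM with solvent and 1.06, 1.75 and 4.32 CPM with LPS (log2 fold change -3.46 ± 0.71 (SE), adjusted p = 0.000244). Over polyamines and NAD, 5 rose and 2 fell of 20 tested members (median log2 fold change 0.41). Without 1 library the log2 fold change moved for Kmo to -4.21 (LPS replicate 3) and Tyms to -4.06 (LPS replicate 1).

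Among the called genes of metal handling, most moved upward: 6 rose and 1 fell of 24 tested members (median log2 fold change 0.43). The shares were 25% and 4.17%, beside 8.4% and 8.09% of all genes. Slc31a2 (CTR2), a copper transporter of endolysosomes, had 16.1, 8.95 and 12.4 CPM with solvent and 91.9, 93.2 and 103 CPM with LPS (log2 fold change 2.94 ± 0.23 (SE), adjusted p = 9.3e-14), and Atp7a, the copper pump that loads the secretory path and phagosomes, rose from 26.9 ± 5.54 to 63.5 ± 4.52 CPM. The zinc importers Slc39a14 and Slc39a1 rose from 21.9 ± 5.47 to 60.6 ± 16.1 CPM and 52.1 ± 12.4 to 142 ± 19.9 CPM. Of the metallothioneins, Mt2 rose from 17.1 ± 4.57 to 53.6 ± 12.96 CPM, while its neighbour Mt1, with 126, 156 and 132 CPM with solvent and 113, 107 and 125 CPM with LPS, was not called (adjusted p = 0.434).

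In lipid metabolism, genes that bring fatty acids into mitochondria and oxidise them were among those that fell. Cpt1a, the gate of mitochondrial import, had 47.4, 25.4 and 41.5 CPM with solvent and 12.9, 6.84 and 7.25 CPM with LPS (log2 fold change -2.08 ± 0.36 (SE), adjusted p = 2.08e-05), and the short-chain dehydrogenase Acads fell from 9.16 ± 1.76 to 1.62 ± 1.49 CPM. Acsl4, which activates arachidonate, rose from 314 ± 22.7 to 622 ± 68.2 CPM, and Plin2, which coats lipid droplets, at 40.7 ± 11.1 and 65.3 ± 5.80 CPM, narrowly missed the threshold (adjusted p = 0.0553). In the list, 2 rose and 6 fell of 32 tested members (median log2 fold change -0.05). Over sphingolipids and gangliosides, 4 rose and 8 fell of 31 tested members (median log2 fold change -0.06). Among the 4 that rose were Degs1, which makes ceramide, Ugcg, which makes glucosylceramide, and B4galt5, which makes lactosylceramide, from 127 ± 17.8 to 328 ± 11.4 CPM, 37.2 ± 6.91 to 103 ± 23.1 CPM and 14.7 ± 3.87 to 50.7 ± 8.10 CPM. B4galt5 was not called in the pair of libraries with melatonin described at the end (adjusted p = 0.227). Gm2a, the activator protein needed to break gangliosides down, fell from 54.9 ± 11.6 to 14.4 ± 2.84 CPM. Among glycosyltransferases, 3 rose and 5 fell of 30 tested members (median log2 fold change 0.21), and both sialic-acid enzymes described here fell. The share that rose, 10%, was near that of protein-coding genes (10.5%), and 16.7% fell. St8sia4, which makes polysialic acid, had 222, 205 and 248 CPM with solvent and 48.8, 70.01 and 58.1 CPM with LPS (log2 fold change -1.93 ± 0.19 (SE), adjusted p = 5.76e-11). St6gal1, which adds sialic acid to galactose, had 38.2, 31.2 and 29.2 CPM with solvent and 0, 0.582 and 4.01 CPM with LPS (log2 fold change -4.42 ± 0.66 (SE), adjusted p = 1.29e-06). Galnt3, which starts mucin-type O-glycans, rose from 1.46 ± 2.27 to 24 ± 8.02 CPM, with 1 solvent library above the other two. With 1 library left out the call was lost for Acads (LPS replicate 1 left out, adjusted p = 0.0618). With 1 library left out, the log2 fold change moved for Acads to -3.47 (LPS replicate 3), Galnt3 to 7.11 (solvent replicate 1) or 3.45 (solvent replicate 3) and St6gal1 to -6.71 (LPS replicate 3).

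At the cell surface, both anaphylatoxin receptors of complement rose. C5ar1 had 3.23, 0 and 5.24 CPM in the solvent libraries and 195, 224 and 219 CPM in the LPS libraries (log2 fold change 6.22 ± 0.52 (SE), adjusted p = 1.29e-12), and C3ar1 had 46.9, 45.7 and 59.5 CPM in the solvent libraries and 312, 376 and 374 CPM in the LPS libraries (log2 fold change 2.80 ± 0.16 (SE), adjusted p = 9.84e-18). In the complement list, 3 rose and 1 fell of 13 tested members (median log2 fold change 0.29). In the list of clotting and fibrinolysis, 4 rose and 2 fell of 19 tested members (median log2 fold change 0.02). The share that rose was 21.1%, and the share that fell, 10.5%, was that of all protein-coding genes. Plaur, the urokinase receptor, had 17.2, 21.8 and 22.5 CPM with solvent and 401, 316 and 375 CPM with LPS (log2 fold change 4.15 ± 0.31 (SE), adjusted p = 5.66e-14), but urokinase itself (Plau) fell from 39.9 ± 8.19 to 14.2 ± 3.33 CPM. The protein C receptor Procr rose from 1.35 ± 1.28 to 40.03 ± 3.68 CPM, and the anticoagulant protein S (Pros1) fell from 36.8 ± 5.52 to 10.02 ± 7.46 CPM. Calls that ended without 1 library were those of Pros1 (LPS replicate 1 or 2 left out, adjusted p = 0.0539 to 0.11). Without 1 library the log2 fold change moved for C5ar1 to 7.06 (solvent replicate 3), Procr to 5.67 (solvent replicate 1) or 4.30 (solvent replicate 2) and Pros1 to -2.60 (LPS replicate 3).

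Among proteases, inhibitors and matrix proteins, 9 rose and 3 fell of 31 tested members (median log2 fold change 0.91). Spp1 (osteopontin) had 595, 653 and 593 CPM with solvent and 3817, 3753 and 3666 CPM with LPS (log2 fold change 2.61 ± 0.31 (SE), adjusted p = 1.22e-08), and Slpi, a secreted inhibitor of leukocyte proteases, 0, 0 and 1.35 CPM with solvent and 20.8, 25.8 and 17.6 CPM with LPS (log2 fold change 5.46 ± 0.94 (SE), adjusted p = 2.39e-05). Cystatin C (Cst3), the secreted inhibitor of cathepsins, had 10116, 10141 and 9823 CPM with solvent and 3848, 3786 and 3507 CPM with LPS (log2 fold change -1.43 ± 0.16 (SE), adjusted p = 4.26e-09). In the integrin and adhesion list, 6 rose and 2 fell of 27 tested members (median log2 fold change 0.39). The share that rose was 22.2%, beside 8.4% of all genes, and the share that fell, 7.41%, was near the 8.09% of all genes. The α chains moved both ways. Itgal, the α chain of LFA-1, had 3 counts over the solvent libraries and 22.3, 12.4 and 19.4 CPM with LPS, a ratio of 113 (95% exact counting interval 38.4 to 552). Itga5, of the fibronectin receptor, had 15.5, 18.7 and 23.97 CPM with solvent and 69.2, 113 and 91.3 CPM with LPS (log2 fold change 2.23 ± 0.34 (SE), adjusted p = 2.3e-06), while Itga4, of VLA-4, had 950.4, 951 and 1065 CPM with solvent and 204, 256 and 238 CPM with LPS (log2 fold change -2.09 ± 0.23 (SE), adjusted p = 1.93e-09). The β chains Itgb2 and Itgb1, at 276 ± 18.8 and 343 ± 18.5 CPM and 98.1 ± 9.12 and 102 ± 8.19 CPM, and Itgam, at 282 ± 13.1 and 225 ± 33.8 CPM, were not called (adjusted p = 0.122, 0.882 and 0.526). The hyaluronan receptor Cd44 rose from 363 ± 11.5 to 1247 ± 84.4 CPM. All solvent counts of Slpi came from 1 library (solvent replicate 3), and without it the group is at 0 counts.

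Ligands and receptors through which macrophages meet T cells rose more often than they fell: 9 rose and 4 fell of 34 tested members (median log2 fold change 0.32). Cd40 had 8.16, 13.5 and 6.89 CPM with solvent and 219.5, 186 and 255 CPM with LPS (log2 fold change 4.53 ± 0.47 (SE), adjusted p = 3.05e-10). Cd274 (PD-L1), which restrains T cells, had 24.8, 12.6 and 21.3 CPM with solvent and 84.2, 106 and 83.1 CPM with LPS (log2 fold change 2.22 ± 0.26 (SE), adjusted p = 6.23e-09), and Lgals9 (galectin-9) rose from 1.99 ± 0.926 to 68.8 ± 3.59 CPM while Havcr2 (TIM-3), a receptor for it, fell from 14.7 ± 5.05 to 3.15 ± 1.16 CPM. The inhibitory receptors Lilr4b and Lilrb4a rose as well, but they are close paralogs that may share reads. Among pattern receptors, 6 rose and 3 fell of 30 tested members (median log2 fold change 0.39). The C-type lectin Clec4e (Mincle), which senses bacterial glycolipids, had 73.6, 74.3 and 67.7 CPM with solvent and 996, 1014 and 927 CPM with LPS (log2 fold change 3.77 ± 0.18 (SE), adjusted p = 6.51e-20). Its partner Clec4d rose from 38.7 ± 9.73 to 263 ± 19.8 CPM. The cytosolic DNA sensor Mb21d1 (cGAS) fell from 81.96 ± 7.89 to 32.04 ± 8.81 CPM (adjusted p = 9.66e-06), and Clec7a (dectin-1), at 45.2 ± 9.07 and 30.3 ± 6.88 CPM, was not called (adjusted p = 0.195).

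Receptors for nucleotides and growth factors changed as well. Over purinergic and cyclic-nucleotide signalling, 5 rose and 5 fell of 33 tested members (median log2 fold change -0.40). The adenosine receptor Adora2b had 0, 0.785 and 1.95 CPM with solvent and 11.1, 8.01 and 20.97 CPM with LPS (log2 fold change 3.83 ± 0.90 (SE), adjusted p = 0.00152), and the ATP-gated channel P2rx7 fell from 12.6 ± 1.95 to 3.16 ± 2.00 CPM (log2 fold change -1.99 ± 0.52 (SE), adjusted p = 0.00413). Csf1r, the receptor of the growth factor M-CSF, had 5309, 5015 and 4847 CPM in the solvent libraries and 1562, 1371 and 1693 CPM in the LPS libraries (log2 fold change -1.71 ± 0.22 (SE), adjusted p = 5.35e-08). Tgfbr2 fell from 177 ± 13.1 to 64.1 ± 8.05 CPM and Cx3cr1, the fractalkine receptor, from 614 ± 6.86 to 301 ± 21.4 CPM. Lifr, a receptor chain for LIF, had 11.04, 6.60 and 5.54 CPM with solvent and 0, 0.291 and 0.308 CPM with LPS (log2 fold change -5.14 ± 1.18 (SE), adjusted p = 0.00114). In the other direction, Tnfrsf1b (TNFR2) had 18.9, 19.6 and 24.4 CPM with solvent and 239.8, 306 and 260.0 CPM with LPS (log2 fold change 3.68 ± 0.25 (SE), adjusted p = 1.22e-15), the interleukin-7 receptor Il7r rose from 27.5 ± 3.93 to 130.2 ± 20.1 CPM, and Socs3, which blocks JAK signalling, from 8.79 ± 1.64 to 67.6 ± 14.1 CPM. Over cytokine receptors and SOCS genes, 8 rose and 6 fell of 50 tested members (median log2 fold change 0.05). Without 1 library the log2 fold change moved for Adora2b to 4.99 (solvent replicate 3) and P2rx7 to -2.63 (LPS replicate 1).

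Protein kinases and phosphatases rose far more often than they fell: 29 rose and 6 fell of 87 tested members (median log2 fold change 0.18). The shares were 33.3% and 6.9%, beside 8.4% and 8.09% of all genes. Src had 0 counts with solvent and 5.92, 6.99 and 2.00 CPM with LPS, at least 31.4-fold higher (adjusted p = 0.00265). Fgr and Lyn, Src-family kinases of myeloid cells, rose from 11.2 ± 3.99 to 36.2 ± 4.73 CPM and 109 ± 11.05 to 198 ± 14.8 CPM, and their downstream kinase Syk from 43 ± 8.41 to 97.1 ± 3.43 CPM. Plk2, a polo-like kinase of stress responses, had 41.97, 37.2 and 45.1 CPM with solvent and 292, 294 and 301 CPM with LPS (log2 fold change 2.84 ± 0.21 (SE), adjusted p = 1.67e-14). Ikbke, which phosphorylates IRF3, rose from 10.02 ± 3.13 to 94.5 ± 5.34 CPM. Ptpn14, a phosphatase that restrains YAP, had 0, 0.785 and 0.449 CPM with solvent and 13.7, 43.2 and 37.2 CPM with LPS (log2 fold change 6.16 ± 0.86 (SE), adjusted p = 3.85e-07). The receptor phosphatase Ptpro fell from 34.6 ± 7.89 to 4.99 ± 2.69 CPM and Inpp5d (SHIP1), which removes phosphate from PIP3, from 109 ± 14.9 to 62.7 ± 5.33 CPM. The p38 kinase Mapk14, at 98.6 ± 7.88 and 82.1 ± 8.90 CPM, was not called (adjusted p = 0.33). The call was lost without 1 library for Fgr (solvent replicate 1 left out, adjusted p = 0.07). Leaving out 1 library changed the log2 fold change of Ptpn14 to 6.94 (solvent replicate 2).

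The cytoskeleton list rose on balance. Over actin, microtubule and membrane-shape genes, 12 rose and 6 fell of 44 tested members (median log2 fold change 0.16). Marcks, which links actin to the plasma membrane, had 2.04, 0.314 and 1.35 CPM with solvent and 68.6, 97.8 and 71.7 CPM with LPS (log2 fold change 6.00 ± 0.77 (SE), adjusted p = 7.2e-08). Its relative Marcksl1 rose from 13.01 ± 5.29 to 296 ± 35.1 CPM, and in both genes the groups stood far apart. Plek (pleckstrin), a substrate of protein kinase C, had 286, 274 and 257 CPM with solvent and 1729, 1937 and 1850 CPM with LPS (log2 fold change 2.76 ± 0.15 (SE), adjusted p = 8.55e-19). Ehd1, which shapes recycling endosomes, had 35, 32.03 and 25.2 CPM with solvent and 463, 437 and 446 CPM with LPS (log2 fold change 3.87 ± 0.23 (SE), adjusted p = 3.08e-17). The GTPase Rhoc had 27.5, 18.2 and 27.7 CPM with solvent and 407, 248 and 315 CPM with LPS (log2 fold change 3.72 ± 0.24 (SE), adjusted p = 7.47e-16). Cdc42ep2, a CDC42 effector, was kept out of the 15 largest rises because its symbol matches a cell-cycle pattern. It had 0 counts with solvent and 18.2, 34.2 and 14.03 CPM with LPS, at least 139.7-fold higher. Rac1 and Rac2 had 109.7 ± 11.4 and 115 ± 6.54 CPM and 713 ± 22.9 and 728 ± 4.88 CPM with solvent and LPS and were not called (adjusted p = 0.851 and 0.921). The GAP Arhgap18 had 312, 275 and 277 CPM with solvent and 72.4, 62.2 and 61.4 CPM with LPS (log2 fold change -2.14 ± 0.18 (SE), adjusted p = 1.58e-12). Stmn1, which destabilises microtubules in dividing cells, had 42.98, 44.8 and 43.9 CPM with solvent and 2.43, 8.30 and 4.32 CPM with LPS (log2 fold change -3.12 ± 0.37 (SE), adjusted p = 9.48e-09).

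Channels and G-protein regulators held pairs of relatives that moved apart. The volume-regulated channel subunits moved in opposite directions, Lrrc8d from 304 ± 35.9 to 779 ± 90.2 CPM and Lrrc8c from 86.1 ± 5.76 to 26.2 ± 6.66 CPM (adjusted p = 3.09e-08 and 6.06e-06). So did the calcium sensors of the endoplasmic reticulum, with Stim2 from 22.99 ± 6.54 to 55.3 ± 15.7 CPM and Stim1 from 112 ± 7.70 to 53.1 ± 5.04 CPM (adjusted p = 0.000489 and 7.48e-06). Clic4, a chloride intracellular channel protein, rose from 1176 ± 77.3 to 2271 ± 163 CPM. In the channel list, 10 rose and 8 fell of 47 tested members (median log2 fold change 0.11). Rgs2, which ends signalling by Gq, had 769, 753 and 713 CPM with solvent and 244, 194 and 257 CPM with LPS (log2 fold change -1.69 ± 0.16 (SE), adjusted p = 7.02e-11), and Rgs16 had 0 counts with solvent and 5.01, 1.46 and 2.31 CPM with LPS, at least 18.5-fold higher (adjusted p = 0.00923). In the G-protein list, 5 rose and 6 fell of 28 tested members (median log2 fold change -0.18).

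In the nucleus, many DNA repair genes fell: 0 rose and 31 fell of 64 tested members (median log2 fold change -0.95). The share that fell was 48.4%, beside 8.09% of all genes. Brca2, a mediator of homologous recombination, had 73.2, 71.1 and 91.8 CPM with solvent and 7.13, 6.55 and 11.6 CPM with LPS (log2 fold change -3.23 ± 0.44 (SE), adjusted p = 2.16e-07). Brca1, of the same pathway, fell from 53.1 ± 8.71 to 8.33 ± 1.45 CPM. The mismatch repair gene Msh6 fell from 89.97 ± 15.8 to 24.2 ± 2.57 CPM. Neil3, a glycosylase of oxidised bases, had 23.96, 21.5 and 21.7 CPM with solvent and 1 count over the LPS libraries, a ratio of 0.00224 (95% exact counting interval 5.67e-05 to 0.0126). Xrcc5 (Ku80), of end joining, had 33.98, 40.2 and 39.7 CPM with solvent and 47.9, 43.96 and 69.2 CPM with LPS and was not called (adjusted p = 0.148). Many of these genes are known to be transcribed with DNA replication, and 203 of the genes that fell in these libraries matched the cell-cycle patterns. Of the 64 tested members, 24 match those patterns themselves, and 16 of the 31 that fell do not. The part of the cell cycle in the list was not tested. At an unadjusted p under 0.05, 2 of the 64 were higher, and DESeq2 called 1 higher and 34 lower.

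Chromatin genes fell more than they rose: 5 rose and 18 fell of 67 tested members (median log2 fold change -0.36). Uhrf1, which brings DNA methyltransferase to new strands, had 329, 335 and 375 CPM with solvent and 64.5, 82.97 and 63.7 CPM with LPS (log2 fold change -2.30 ± 0.23 (SE), adjusted p = 1.45e-10). That methyltransferase, Dnmt1, fell from 68.7 ± 9.01 to 23.8 ± 7.37 CPM. Ezh2, the methyltransferase of the Polycomb repressive complex, fell from 102 ± 13.6 to 29.98 ± 4.89 CPM, and the histone chaperone subunit Chaf1b from 12.7 ± 2.32 to 0.973 ± 1.55 CPM. Hmga2, an architectural protein best known from embryonic and transformed cells, rose, with 258, 249.7 and 198 CPM with solvent and 1068, 964 and 987 CPM with LPS (log2 fold change 2.10 ± 0.23 (SE), adjusted p = 1.5e-09). The histone demethylase Kdm5b and Tet2, which oxidises methylcytosine, rose with log2 fold changes of 2.02 ± 0.49 and 0.64 ± 0.15. The demethylase Kdm1a, at 37.04 ± 2.68 and 37.4 ± 7.32 CPM, was not called (adjusted p = 0.997). With 1 library left out, the log2 fold change moved for Chaf1b to -7.05 (LPS replicate 2).

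RNA-binding proteins included paralogs that moved apart. Mbnl1, a regulator of splicing, had 676, 704 and 704 CPM with solvent and 366, 363 and 325 CPM with LPS (log2 fold change -0.98 ± 0.12 (SE), adjusted p = 2.6e-08). Mbnl2 moved the other way, with 120.3, 104 and 143 CPM with solvent and 247, 274 and 223 CPM with LPS (log2 fold change 1.02 ± 0.16 (SE), adjusted p = 2.81e-06). The endoribonuclease genes Zc3h12a (regnase-1) and Zc3h12c rose from 17.5 ± 6.73 to 83.4 ± 2.64 CPM and 157 ± 13.1 to 728 ± 36.3 CPM, and Zfp36l2, which speeds decay of AU-rich mRNAs, fell from 157 ± 12.5 to 53.8 ± 19.6 CPM. Over the list, 8 rose and 9 fell of 59 tested members (median log2 fold change -0.06). Among guidance cues, 6 rose and 3 fell of 21 tested members (median log2 fold change 0.25). Nrp2 (neuropilin-2) had 757, 689 and 624 CPM with solvent and 2014, 1803 and 2153 CPM with LPS (log2 fold change 1.53 ± 0.17 (SE), adjusted p = 2.37e-09), and Flrt2 rose from 30.7 ± 3.10 to 161 ± 23.01 CPM, while the plexins Plxnd1 and Plxnc1 fell from 30.1 ± 3.26 to 8.15 ± 1.39 CPM and 89.1 ± 9.19 to 29.7 ± 4.77 CPM. Jag1, a Notch ligand, had 3.23, 3.30 and 7.04 CPM with solvent and 23.1, 52.98 and 26.5 CPM with LPS (log2 fold change 2.91 ± 0.53 (SE), adjusted p = 5.01e-05), and Vegfb, a vascular growth factor, fell from 98.4 ± 10.9 to 37.6 ± 8.32 CPM. In the Notch and Wnt list, 3 rose and 3 fell of 31 tested members (median log2 fold change -0.30), and in the list of growth factors and TGF-beta signalling, 3 rose and 3 fell of 36 tested members (median log2 fold change 0.20). Among tetraspanins and MS4A proteins, 4 rose and 2 fell of 20 tested members (median log2 fold change 0.06). These 3 lists had shares near those of all genes in at least 1 direction. So did others above, among them complement (7.69% fell), pattern receptors (10% fell) and vesicle traffic (10% fell), beside 8.09% of all genes. Integrins (7.41% fell) and kinases and phosphatases (6.9% fell) were further ones. Glycosyltransferases (10% rose) and chromatin genes (7.46% rose) stood near the 8.4% of all genes or the 10.5% of protein-coding genes.

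**Figure D4:**
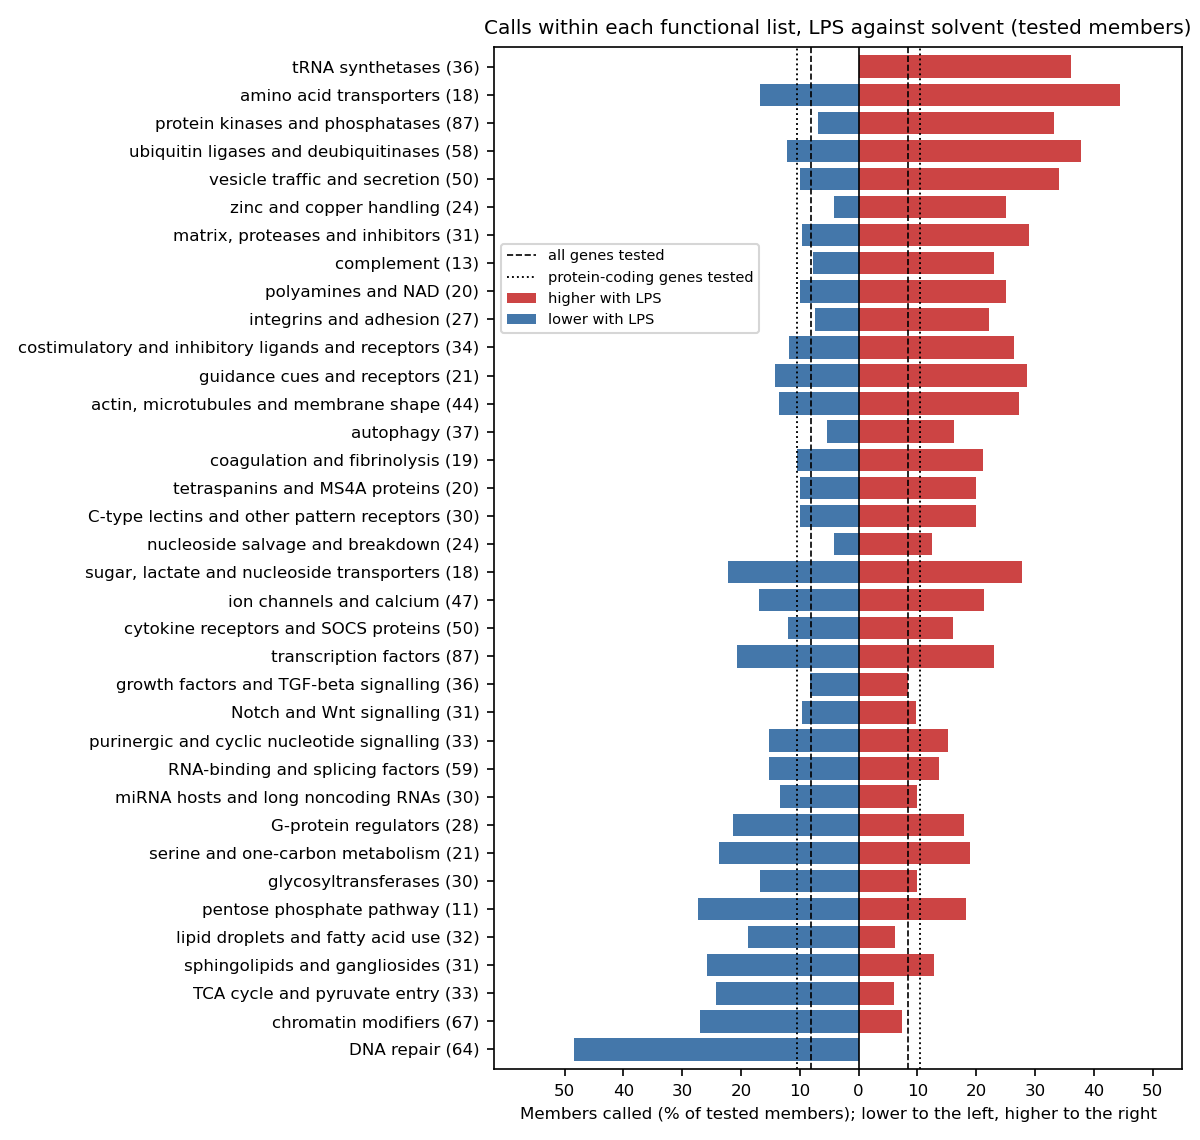
Percent of tested members called higher (red, to the right) and lower (blue, to the left) in each list shown, with the number of tested members in parentheses. Dashed lines mark the shares of all genes tested, 8.4% higher and 8.09% lower, and dotted lines those of protein-coding genes, 10.5% each. The tRNA synthetase bar lies wholly to the right and the DNA repair bar wholly to the left.

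The same genes were measured again in 6 libraries that the comparison above did not use, as 3 libraries with LPS after 0.1 µM melatonin against 3 with 0.1 µM melatonin alone. There, 1350 genes (7.95%) were higher and 1309 (7.71%) lower. Of the genes higher with LPS against solvent, 988 were also higher in this second pair, 69.2% of the first list and 73.2% of the second. Of the lower genes 860 were also lower, 62.5% and 65.7% of the lists, and 0 genes were called in opposite directions. All groups share 1 fit, so the estimates of spread are not independent. Of the 30 genes with the largest changes, 23 were called the same way and 7 were not called in the second pair, among them Gpr18, Acsbg1, P2ry12, Dpf3, Klhl23 and Srpk3. The 30 were chosen for their size in the first pair, so their sizes in the second are not set against them. In the second pair, Gpr18 had an adjusted p of 0.616 and P2ry12 of 0.0845. A test of the difference between the responses called 2 genes of 16988 (0.0118%), both pseudogenes and chosen here after their values were seen (Gm13502 and Gm29216), and 1213 genes had an unadjusted p under 0.05.

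**Figure D5:**
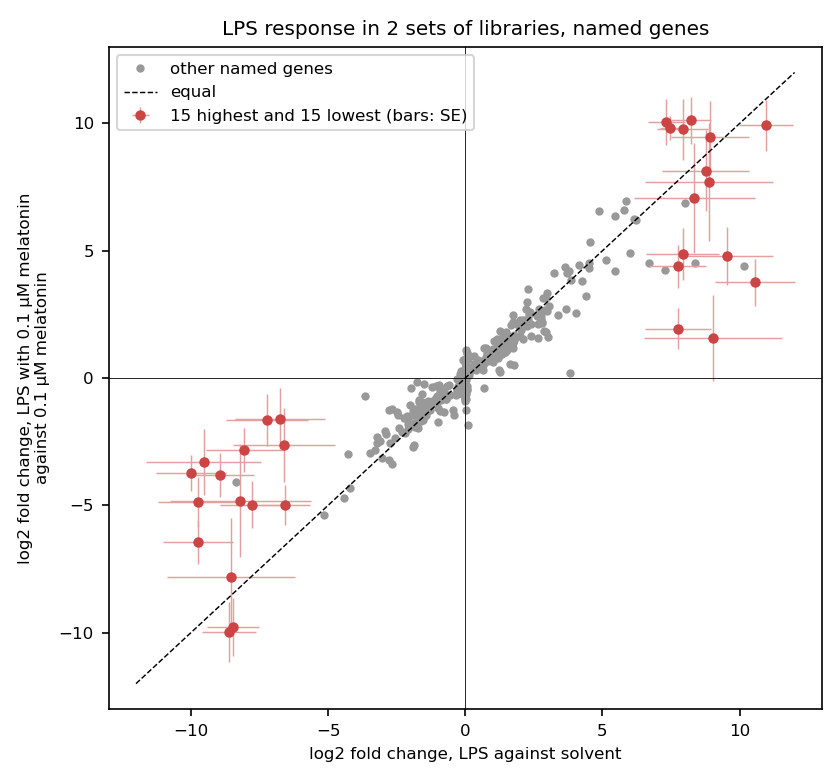
Log2 fold change of LPS against solvent (horizontal axis) and of LPS with 0.1 µM melatonin against 0.1 µM melatonin (vertical axis) for the named genes. Fitted values of genes with 0 counts in a group depend on the small count added in the fit, and so do their points and bars here. Red points with SE bars are the 30 genes with the largest changes in the first comparison, grey points the other named genes, and the dashed line marks equal values. Nearly all points lie in the quadrants where both responses have 1 sign.

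Counts in the second pair were close to those above for some lists and not for others. Of the 37 lists, 28 had the same direction in the majority in both pairs, 4 changed side and 5 had equal counts in at least 1 pair. In the second pair, 14 synthetases rose and 2 fell of 36, 19 ubiquitin enzymes rose and 5 fell of 58, and 26 kinases and phosphatases rose and 10 fell of 87. Of 64 DNA repair genes 0 rose and 29 fell, of 67 chromatin genes 4 rose and 21 fell, and of 33 citrate cycle genes 3 rose and 9 fell. Of the 38 core and regulatory proteasome subunits, 9 core and 12 regulatory subunits rose and 0 fell. The mitochondrial synthetases differed, with 3 of 17 lower in the second pair, Lars2 among them (log2 fold change -1.24 ± 0.31 (SE), adjusted p = 0.00261). The limit on the reads of Lars2 given above holds here too. The lists that changed side were lipid droplets and fatty acid use (6 rose and 3 fell in the second pair), nucleoside salvage (1 rose and 4 fell), guidance cues (4 rose and 5 fell) and microRNA hosts and long noncoding RNAs (3 rose and 2 fell). Of the sphingolipid genes 8 rose and 8 fell, and of the G-protein regulators 2 rose and 7 fell. Differences between the pairs were not tested for lists. Of 262 called genes that the rule or the text names, 229 were called the same way in the second pair and 0 the opposite way. Many of the 262 were chosen for a large change or a small adjusted p in the first pair, which favours such agreement. Over all called genes the shares were 69.2% of the higher and 62.5% of the lower. Named genes not called in the second pair include Stim1 and Stim2, with log2 fold changes of -0.33 ± 0.17 and 0.23 ± 0.27 (SE). P2rx7 at -0.38 ± 0.49 and Adora2b at 0.20 ± 0.79 were not called either. The difference between the responses did not pass the test for any of these 4 genes. Also not called there were Chaf1b (-0.69 ± 0.77), Atp7a (0.33 ± 0.28), Acads (-1.33 ± 0.64) and Cx3cr1 (-0.72 ± 0.26). Their differences did not pass the test.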

How the data were processed

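Gene counts for 36 RNA-seq libraries in 12 groups of 3 were used as deposited. Per the submitters' processing notes, which list names without roles, the authors used cutadapt, featureCounts and the mm10 build. Versions, strand and multi-mapping settings are not given in the sources used here. The authors' deposited count table holds whole-number counts for 53465 genes, 53274 of which matched GENCODE M21. The deposited FPKM table gave gene symbols only, and no FPKM value is printed. Each of the 36 columns mapped to 1 sample, and unmapped columns numbered 0.

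Counts were filtered with filterByExpr, scaled by TMM and fitted with 1 mean per group over all 36 libraries in edgeR 4.0.16 (glmQLFit and glmQLFTest, R 4.3.3, limma 3.58.1), and p-values were adjusted by Benjamini-Hochberg with a threshold of 0.05, 2-sided. All libraries held 4203313 to 7590271 counts. On counts simulated for LPS against solvent (15242 genes, 50 per fold size and direction), tested as a check, the fit called 84% and 80% of genes changed 4-fold up and down, 40% and 34% of those changed 2-fold, and 3 of 15042 unchanged genes. The changed genes were drawn from those with a solvent mean of 5 CPM or more, so these shares do not cover genes nearly silent with solvent. Where all 3 libraries of 1 group hold 0 counts, the fold is a lower bound set by 3 counts summed over that group, and a gene with 1 to 3 counts there has a ratio with an exact 95% interval. Both cover counting error only and not the spread between libraries, so they do not limit the response to LPS in other libraries. Promoters and microRNAs were read from RefSeq tables of GRCm38.p6.

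The genes described are the 15 highest and 15 lowest fold changes among called genes with no overlap, a higher mean of 5 CPM or more and a symbol outside the classic patterns. Then, per list, come up to 4 members with the smallest adjusted p, up to 2 uncalled members at 10 CPM or more with the largest, and further members given beside a list's count. The members and lists were chosen with earlier results of these data known. Alternatives were RLE and upper-quartile scaling, DESeq2 1.42.0, other filters, only the 6 compared libraries, a replicate block, and leaving out each library. A few genes and 1 list are not reported here. The test of the difference between the LPS responses was added after seeing the data.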

Additional observations from a re-analysis of the deposited data

How the results depend on the processing

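The numbers of higher and lower genes stayed within 1.5 times of 1427 and 1375 under all 13 alternatives. They were 1372 and 1402 with RLE scaling, 1333 and 1438 with upper-quartile scaling, 1545 and 1577 with DESeq2, 1311 and 1280 with no filter, 1497 and 1437 with a mean of at least 1 CPM, and 1530 and 1402 with only the 6 compared libraries. Leaving out 1 library gave 1147 to 1218 higher and 1101 to 1172 lower genes. With a replicate block, 1421 were higher and 1358 lower, and the block changed no call of a described gene. Deviations of LPS and solvent libraries with 1 number had correlations of 0.0019, -0.0046 and -0.0104, so no pairing by number was visible. These correlations run over all tested genes, many with few counts, and cannot settle whether the numbers mark a shared culture or batch.

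Of 262 called genes that the rule or the text names, 248 kept the call under every alternative that tested them, 0 reversed, and 14 lost it without 1 library. Those that are described are named beside their values above. Of 94 uncalled genes, 5 passed under some alternative. The adjusted p of Cs was 0.0446 with upper-quartile scaling, 0.0142 with DESeq2 and 0.0222 with the 6 libraries, and that of Lars2 0.000347 with no filter. With the 6 libraries, Itgb2 had 0.0412, Spi1 0.0366 and Plin2 0.0431, and Plin2 had 0.0202 without solvent replicate 1. Of 962 list counts under the alternatives, 69 moved by over 1.5 times. Of the 69, 21 were counts that stand above at 2 or fewer genes. For the larger counts of the described lists, the values were as follows. With no filter on low counts, the number that fell became 5 in place of 9 for RNA-binding proteins, 3 in place of 5 for purinergic signalling, 3 in place of 5 for serine metabolism and 4 in place of 7 for ubiquitin enzymes. Without LPS replicate 1, the number that rose became 3 in place of 5 for polyamines and NAD and 2 in place of 4 for serine metabolism, and the number that fell became 3 in place of 5 for vesicle traffic. Without LPS replicate 2, the number that rose became 2 in place of 5 for sugar carriers, and the number that fell became 1 in place of 3 for pattern receptors, 5 in place of 9 for RNA-binding proteins, 2 in place of 4 for costimulatory molecules, 3 in place of 6 for lipid droplets, 3 in place of 5 for purinergic signalling and 4 in place of 7 for ubiquitin enzymes. Without LPS replicate 3, the number that rose became 1 in place of 3 for nucleoside salvage and 3 in place of 5 for polyamines and NAD, and the number that fell became 4 in place of 9 for RNA-binding proteins, 2 in place of 4 for costimulatory molecules, 3 in place of 5 for glycosyltransferases, 3 in place of 5 for purinergic signalling, 3 in place of 5 for serine metabolism and 3 in place of 5 for vesicle traffic. Without solvent replicate 1, the number that rose became 2 in place of 5 for G-protein regulators and 1 in place of 3 for Notch and Wnt signalling, and the number that fell became 1 in place of 3 for pattern receptors and 3 in place of 5 for vesicle traffic. Without solvent replicate 2, the number that rose became 3 in place of 5 for G-protein regulators, 1 in place of 3 for nucleoside salvage, 3 in place of 5 for polyamines and NAD, 2 in place of 4 for serine metabolism and 11 in place of 17 for vesicle traffic, and the number that fell became 1 in place of 3 for Notch and Wnt signalling, 4 in place of 9 for RNA-binding proteins, 3 in place of 5 for serine metabolism, 4 in place of 7 for ubiquitin enzymes and 2 in place of 5 for vesicle traffic. Without solvent replicate 3, the number that rose became 2 in place of 5 for G-protein regulators, 5 in place of 8 for cytokine receptors, 3 in place of 6 for guidance cues, 1 in place of 3 for nucleoside salvage and 2 in place of 4 for serine metabolism, and the number that fell became 1 in place of 3 for pattern receptors, 5 in place of 9 for RNA-binding proteins, 3 in place of 5 for glycosyltransferases and 3 in place of 5 for vesicle traffic.

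In addition, 24 such genes with more than 3 counts in both groups had a fold change that moved by over 1.5 times without 1 library, and none of these moved to the other direction. Genes at 0 counts have fitted values that depend on the count added in the fit, and with them at their bounds the medians of the matrix, costimulatory and growth factor lists are 0.82, 0.28 and 0.12. Depth limits what is seen: 3 counts over 3 libraries are 0.158 CPM with solvent and 0.150 CPM with LPS.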

Other observations

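Several of the clearest changes were in genes of no list above, and these were chosen after their values were seen. Phlda1, a pleckstrin-homology protein, had 12.6, 5.97 and 9.89 CPM with solvent and 540.3, 479 and 606 CPM with LPS (log2 fold change 5.84 ± 0.32 (SE), adjusted p = 2.38e-18), and Hunk, a kinase related to AMPK, had 4.93, 8.79 and 9.29 CPM with solvent and 350.1, 297 and 381 CPM with LPS. Sod2, the mitochondrial superoxide dismutase, rose from 84.9 ± 6.54 to 677 ± 87.3 CPM, and Txnrd1, the cytosolic thioredoxin reductase, from 273 ± 17.3 to 1076 ± 79.4 CPM (means ± SD, n = 3). Cpd, a carboxypeptidase of the trans-Golgi that can free arginine, rose from 72.98 ± 12.7 to 598 ± 37.3 CPM, the granule proteoglycan Srgn from 114 ± 11.9 to 594 ± 64.3 CPM, the phagosomal metal exporter Slc11a1 (NRAMP1) from 58.5 ± 11.4 to 253 ± 9.10 CPM, and asparagine synthetase (Asns) from 192 ± 13.7 to 576 ± 23.02 CPM. Ndrg2 had 928, 752 and 772 CPM with solvent and 94.96, 107 and 117 CPM with LPS (log2 fold change -2.94 ± 0.19 (SE), adjusted p = 3.79e-16). Serinc3, a multipass membrane protein, fell from 589.8 ± 36.5 to 110.3 ± 15 CPM, and the sialic-acid-binding receptor Cd33 from 294 ± 20.2 to 44.4 ± 6.52 CPM. For each of these genes the LPS libraries lay on 1 side of all solvent libraries. Over all genes tested they lay above for 15.7% and below for 15.6%. The genes were chosen for clear changes, so their separation is no added evidence.

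Gene families taken by symbol, also chosen with results known, added a few patterns. Of 52 translation initiation factor genes (Eif), 15 rose and 2 fell, beside 10.5% of protein-coding genes in each direction. Eif4g2 rose from 208 ± 18.5 to 561 ± 45.5 CPM and Eif1a from 89.03 ± 7.35 to 223 ± 14.02 CPM. The inhibitors of the cap-binding protein moved apart, with Eif4ebp1 from 279.7 ± 10.05 to 577 ± 34.6 CPM and Eif4ebp2 from 214 ± 42.3 to 130.5 ± 13.7 CPM. Of 45 complex I subunit genes (Nduf), 5 (11.1%) fell, near that share, and in the pair with melatonin in both groups 1 rose and 3 fell. Of 53 histone genes, 14 fell. Of 318 zinc finger genes (Zfp), 5 rose and 19 fell, both shares under those of protein-coding genes.

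Neighbouring protein-coding genes were sometimes called in 1 direction. The longest run outside interferon-inducible families was on chromosome 16 (10959275 to 11254325), where Litaf, Txndc11, Zc3h7a, Rsl1d1 and Gspt1 had log2 fold changes of 0.55 to 1.32. On chromosome 11 (76416734 to 76987379), Abr, Gosr1, Cpd and Blmh had 0.57 to 3.03. On chromosome 3 (59207892 to 61368430), P2ry13, P2ry12, Mbnl1 and Rap2b were lower. Positions are those of GENCODE M21 on mm10, and how often such runs arise with no relation between neighbours was not tested.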
